A study of Mus musculus with 32 samples.

Results

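The 9 genes described here encode the interleukin 6 (IL6) signalling chain from ligand to feedback inhibitor. They were chosen by name as the ligand (Il6), the receptor chains (Il6ra and Il6st), the Janus kinases (Jak1, Jak2 and Tyk2), the transcription factor (Stat3), the feedback inhibitor (Socs3) and the phosphatase adaptor (Ptpn11), and all 9 were found among the 33000 genes of the count table. Frontal cortex RNA came from 3-month-old C57BL/6 mice that were either wild type (WT) or homozygous for the GFAP-IL6 transgene, which expresses IL6 under the promoter of the astrocyte gene Gfap. Total RNA was put into reverse transcription at 50, 10, 1 or 0.5 ng, and the libraries were made by 3’Pool-seq, which counts reads near the 3′ ends of polyadenylated transcripts. With 4 libraries for each genotype at each input, there were 32 in all. The labels do not say whether libraries with the same genotype and replicate number share an animal, so p-values measure the spread between these libraries. Reads of the transgene and of the endogenous Il6 gene cannot be told apart in the table.

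IL6 first binds its own receptor chain, IL6RA, on the cell surface or in a soluble form that is shed by proteases. The pair then recruits IL6ST, the signal-transducing subunit shared by the whole cytokine family. Janus kinases held by IL6ST phosphorylate it and then STAT3, which moves to the nucleus as a dimer and switches on target genes. SOCS3 is itself such a target and shuts the receptor down, whereas SHP2, the product of Ptpn11, links the receptor to the MAP kinase pathway. In brain, STAT3 signalling is best known from reactive astrocytes.

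STAT dimers bind the letters TTCNNNGAA, and this sequence is its own reverse complement. It was searched in the RefSeq promoters of GRCm38.p6, which run from 250 bases before to 50 bases after each gene's start, or 300 bases in all. The Socs3 promoter was the one of 9 member promoters to hold these letters, and 2726 of all 32851 promoters (8.3%) held them. The Socs3 promoter at chr11:117969317-117969616, minus strand, is shown because Socs3 is the STAT3-induced inhibitor of the chain, and capitals mark the match, whose first base lies 154 bases before the start. The Stat3 promoter at chr11:100939491-100939790, minus strand, is shown for comparison. Stat3 was the member that edgeR called over the summed inputs, and its promoter held no such match in this window.
Socs3: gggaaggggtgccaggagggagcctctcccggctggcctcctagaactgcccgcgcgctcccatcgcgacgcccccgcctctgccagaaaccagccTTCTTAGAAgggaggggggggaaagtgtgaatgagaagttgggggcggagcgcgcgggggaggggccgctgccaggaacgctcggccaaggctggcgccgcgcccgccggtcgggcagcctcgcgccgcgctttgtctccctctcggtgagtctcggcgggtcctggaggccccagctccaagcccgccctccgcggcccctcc
Stat3: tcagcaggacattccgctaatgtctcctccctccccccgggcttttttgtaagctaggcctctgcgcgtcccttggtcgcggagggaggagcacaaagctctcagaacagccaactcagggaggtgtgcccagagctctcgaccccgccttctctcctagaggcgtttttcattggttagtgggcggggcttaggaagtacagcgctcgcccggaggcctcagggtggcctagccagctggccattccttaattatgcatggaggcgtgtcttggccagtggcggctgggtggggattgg

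Total counts ran from 261378 to 9840302 per library and were lowest at 1 and 0.5 ng. Levels are given as CPM, in which the library total but not transcript length is divided out. The study likewise left out a length correction, because 3’Pool-seq reads only the 3′ ends of transcripts. Levels are compared here between samples and not between genes. Because several members had few counts in a single library, the 4 inputs were also summed for each genotype and replicate number, which gave 4 WT and 4 GFAP-IL6 sums with totals between 2692809 and 21033101. In these sums the summed level of 7 microglial markers was 331.4 to 378.2 CPM in WT and 451.0 to 658.6 CPM in GFAP-IL6, and that of 4 endothelial markers was 49.0 to 63.1 and 66.0 to 97.0 CPM. The 6 astrocyte markers (2630.6 to 3171.2 and 2925.7 to 3454.8 CPM) and 6 neuronal markers (6377.1 to 7281.7 and 6323.4 to 6800.7 CPM) overlapped between genotypes. Of 9 leukocyte markers, Cd3e and Ly6g were at 0 in both genotypes, and the range of the list was 0.396 to 5.26 CPM in WT and 1.19 to 9.09 CPM in GFAP-IL6. The level of 4 striatal markers was 104.9 to 152.8 CPM in WT and 79.5 to 96.6 CPM in GFAP-IL6, with Drd2 at 0 in both. The choroid plexus list reached 3167.9 CPM in 1 WT sum. Its highest WT library was at 3375.1, 3016.4, 3098.6 and 3122.7 CPM from 50 down to 0.5 ng. The part of these shifts in the results below was not tested, and in bulk tissue fewer cells of a type and less RNA per cell cannot be told apart.

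Stat3 was the member that edgeR called higher in GFAP-IL6 cortex over the summed inputs, by 1.95-fold. The differences of Il6 (8.85-fold) and Socs3 (4.32-fold) were larger but were not called. Il6, Socs3 and Stat3 had all 4 GFAP-IL6 sums above all 4 WT sums. Among the 13467 genes with a mean above 1 CPM in the sums, 2.78% were separated in this direction. The summed comparison tested all 9 members, and 1 of 9 was called, at a Benjamini-Hochberg adjusted p under 0.05 over all genes tested by edgeR's quasi-likelihood test, where 0.468% of 13450 genes were called in either direction. The log2 fold change was above 0 in 9 of 9 members and in 51.4% of all genes, and its median was 0.54 in the members and 0.010 over all genes. The members include Il6, the product of the transgene, and were chosen with earlier results of these data known, so this is no independent support. The 95% intervals of Il6ra, Il6st, Jak1, Tyk2 and Ptpn11 included 0. With only the 50 and 10 ng libraries summed, the Stat3 call was lost (edgeR adjusted p = 0.348) and Il6 was called (edgeR adjusted p = 0.000312).

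Within single inputs, edgeR called 0 members. At 50 ng 6 members passed the filter on low counts, 0 had an unadjusted p under 0.05, and 0.28% of all tested genes were called. At 10 ng 7 members passed, of which Il6st and Stat3 had an unadjusted p under 0.05, and 0.332% of genes were called. At 1 ng and at 0.5 ng 5 members passed, Stat3 alone had an unadjusted p under 0.05, and 0.0323% and 0.0117% of genes were called. An unadjusted p under 0.05 was held by 5.63%, 7.48%, 3.59% and 2.87% of all tested genes from 50 down to 0.5 ng. DESeq2, which keeps genes with few counts, called Il6 at 50 and at 10 ng and 0 members at 1 and 0.5 ng. The members left out by the filter were Il6 and Socs3 at every input, Il6ra at 50, 1 and 0.5 ng, and Tyk2 at 1 and 0.5 ng.

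**Figure D1:**
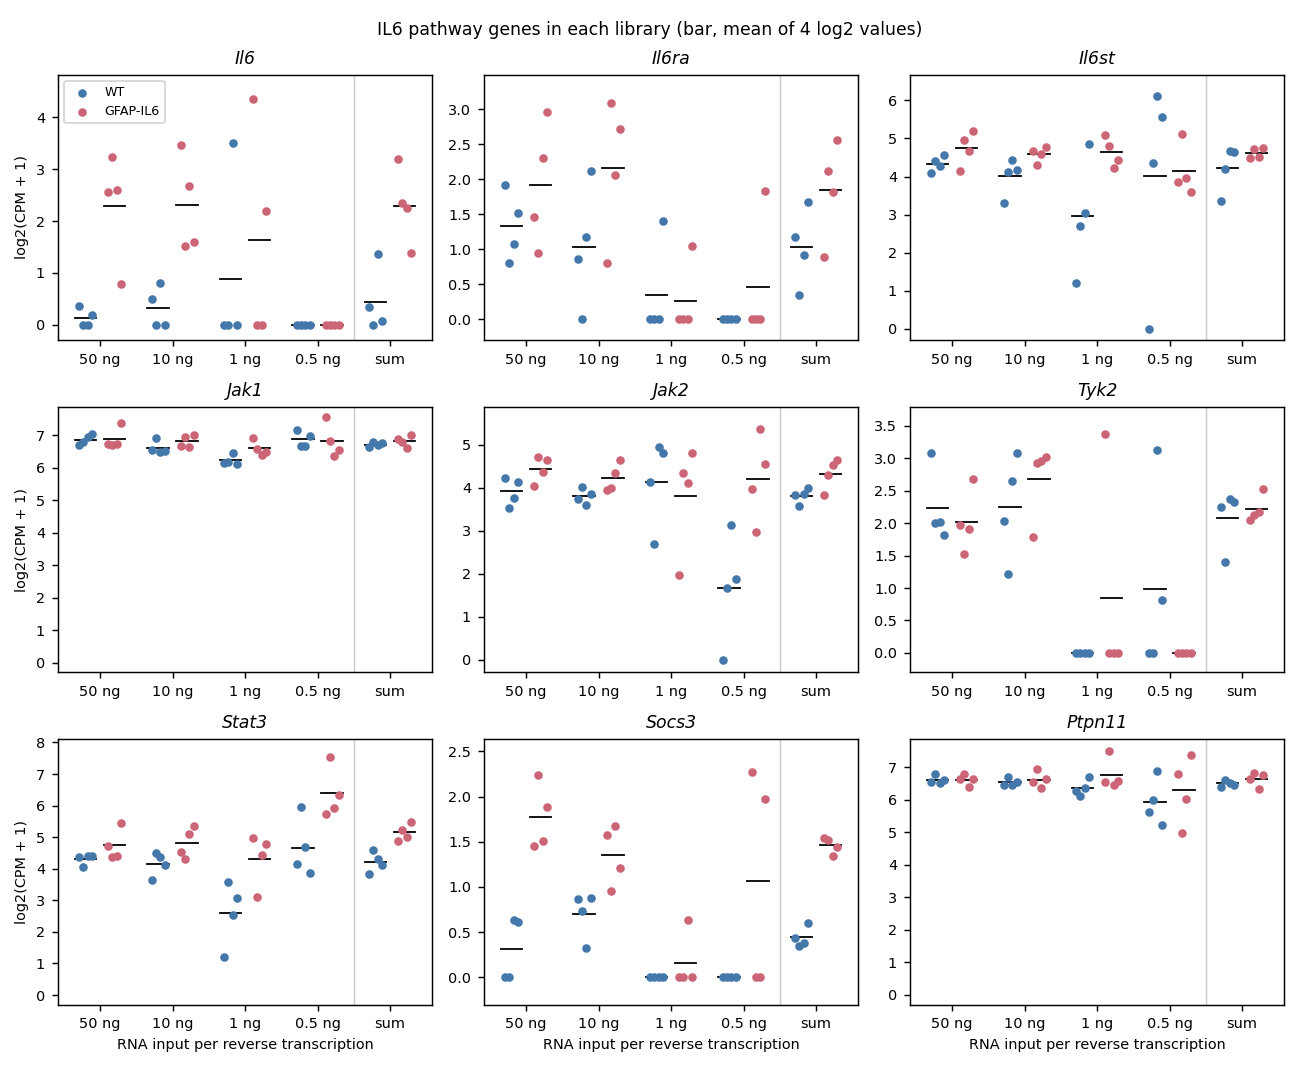
Level of each of the 9 genes as log2(CPM + 1) in every library, by RNA input in ng, and in the sums over the 4 inputs (right of the grey line), with WT in blue and GFAP-IL6 in red, 4 points a group, and a bar at the mean of the 4 log2 values. The points of Il6, Stat3 and Socs3 do not overlap between genotypes in the sums, whereas those of Jak1, Tyk2 and Ptpn11 do.

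Il6 (ENSMUSG00000025746.9, on the plus strand of chromosome 5 from 30013114 to 30019981 in GRCm38), the ligand and the product of the transgene, was used as a check of the genotype labels. Whether transgene transcripts carry the 3′ end that is counted as Il6 was not given in the sources used here. In the sums Il6 was at 0.268, 0, 1.59 and 0.0475 CPM in WT replicates 1 to 4 and at 8.12, 4.08, 3.74 and 1.62 CPM in GFAP-IL6, from 20 counts in WT and 179 in GFAP-IL6. The GFAP-IL6 sums were all higher, but the lowest of them was only just above the WT sum of replicate 3. The log2 fold change was 3.15 ± 0.75 (SE) with an adjusted p of 0.0551 by edgeR, just outside the threshold, and DESeq2 and the fit without a low-count filter called it. By the mean of log2 levels it was 1.23 (adjusted p = 0.31), and in a single fit of all 32 libraries it was 2.48 (adjusted p = 1).

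Of the 16 counts in that WT sum, 13 came from a single library. The library labelled WT replicate 3 at 1 ng had 13 Il6 counts, and the library labelled GFAP-IL6 replicate 3 at 1 ng had 0, so Il6 went against the labels in this pair. Lrg1, a STAT3-induced acute phase gene, did not go against them, with at most 18.3 CPM in the 4 libraries labelled WT at 1 ng and at least 67.0 CPM in the 4 labelled GFAP-IL6. Gfap overlapped at 1 ng, at 8.18 to 22.5 CPM in the libraries labelled WT and 11.8 to 76.5 CPM in those labelled GFAP-IL6. Without WT replicate 3 the summed Il6 difference was 5.07 on the log2 scale (edgeR adjusted p = 0.00218). Leaving out each other replicate gave 2.58 to 3.44 with adjusted p-values of 0.0687 to 0.283, the lowest difference being without GFAP-IL6 replicate 1. The difference was 3.18 with 50, 10 and 1 ng summed (adjusted p = 0.0252), and with only 50 and 10 ng summed it was 4.39 (adjusted p = 0.000312).

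At 50 ng the Il6 mean was 0.102 CPM in WT and 4.78 CPM in GFAP-IL6, and at 10 ng it was 0.292 and 4.84 CPM. In each case the lowest GFAP-IL6 library was above the highest WT library, and the exact permutation p of 0.0286 (two-sided) is the smallest that 4 against 4 can give. At 50 ng 2.32% and at 10 ng 2.78% of genes above 1 CPM were separated this way. At 1 ng the means were 2.61 and 5.76 CPM and the libraries overlapped (exact permutation p = 0.714). At 0.5 ng Il6 had 0 counts in all 8 libraries, where 3 counts would be 1.1 to 10.2 CPM. In GFAP-IL6 replicates 1 and 3, 3 counts would be 1.92 and 1.57 CPM, below their 50 ng levels of 4.92 and 5.07 CPM. In replicates 2 and 4 they would be 10.2 and 1.1 CPM, above their 50 ng levels of 8.4 and 0.717 CPM. The part of RNA input and of depth in these zeros was not tested.

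Il6ra (ENSMUSG00000027947.9, chromosome 3, 89864059 to 89913196, minus strand), the ligand-binding receptor chain, is expressed mainly by microglia in brain. In the sums it was at 1.25, 0.272, 0.892 and 2.19 CPM in WT and at 0.86, 3.34, 2.52 and 4.92 CPM in GFAP-IL6, so 3 GFAP-IL6 sums were above every WT sum and 1 was not. Its log2 fold change of 1.17 ± 0.585 (95% interval -0.04 to 2.37) did not pass (edgeR adjusted p = 0.646). The microglial markers given above moved in the same direction, and their part in this difference was not tested. At 10 ng, the one input at which Il6ra passed the filter, the difference was 1.26 ± 0.708 (adjusted p = 0.711) and 2.24 without WT replicate 4 (edgeR adjusted p = 0.619), and at 50 ng the means were 1.62 and 3.35 CPM (exact permutation p = 0.286). Il6ra had counts in 2 of 8 libraries at 1 ng and in 1 of 8 at 0.5 ng. An antisense gene, Gm42809, shares 242 exon bases with Il6ra but lies 48857 bases from its 3′ end.

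Il6st (ENSMUSG00000021756.10, chromosome 13, 112464070 to 112510086, plus strand), the shared signalling subunit, was at 9.19 to 24.4 CPM in the WT sums and at 21.4 to 26 CPM in the GFAP-IL6 sums. The ranges overlapped, and WT replicates 1 and 2 were below every GFAP-IL6 sum. The summed difference was 0.31 ± 0.245 on the log2 scale (95% interval -0.20 to 0.81, edgeR adjusted p = 0.769). From the highest input to the lowest, the difference was 0.41, 0.56, 1.11 and -0.95, with adjusted p-values of 0.656 or more. Without WT replicate 4 the difference at 1 ng was 2.45 (edgeR adjusted p = 0.998). The libraries of 0.5 ng ran from 0 to 68.7 CPM in WT alone.

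Jak1 (ENSMUSG00000028530.12, chromosome 4, 101152367 to 101265282, minus strand), the main kinase of IL6ST signalling, was the steadiest of the kinases across libraries. The WT sums lay between 98.3 and 110.0 CPM and the GFAP-IL6 sums between 96.5 and 129.1 CPM. The difference was 0.10 ± 0.14 on the log2 scale (95% interval -0.19 to 0.39, edgeR adjusted p = 0.882). The 2 ranges overlapped.

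Jak2 (ENSMUSG00000024789.10, chromosome 19, 29251828 to 29313080, plus strand), which also serves interferon gamma and hormone receptors, was at 13.3, 10.9, 13.5 and 14.8 CPM in the WT sums and at 13.3, 18.6, 22 and 24.1 CPM in the GFAP-IL6 sums. Replicates 2, 3 and 4 of GFAP-IL6 were above every WT sum, and replicate 1 was at the WT level. The difference of 0.54 ± 0.229 (95% interval 0.07 to 1.01) did not pass the adjustment over all genes (edgeR unadjusted p = 0.0273, adjusted p = 0.587). It was 0.45 at 50 ng and 0.49 at 10 ng, then -0.32 at 1 ng and 2.72 at 0.5 ng, where the WT libraries held 0, 1, 10 and 7 counts.

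Tyk2 (ENSMUSG00000032175.10, chromosome 9, 21104068 to 21131243, minus strand), the third kinase of the chain, was at 1.63 to 4.16 CPM in WT and 3.15 to 4.77 CPM in GFAP-IL6. The summed difference was 0.08 ± 0.413 (edgeR adjusted p = 0.973), an interval from -0.77 to 0.93 that spans changes in both directions. At its 3′ end Tyk2 shares 554 exon bases with the antisense gene 1700084C06Rik, and whether reads were counted by strand was not given in the sources used here.

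Stat3 (ENSMUSG00000004040.14, chromosome 11, 100885098 to 100939540, minus strand), the transcription factor at the end of the chain, was at 13.4, 23.4, 18.7 and 16.5 CPM in the WT sums. In the GFAP-IL6 sums it was at 28.7, 36.4, 31.2 and 44 CPM. The GFAP-IL6 sums were all higher, and the mean was 18 ± 4.23 CPM in WT and 35.1 ± 6.76 CPM in GFAP-IL6 (SD, n = 4 each). The log2 fold change was 0.96 ± 0.212 (95% interval 0.52 to 1.40), a 1.95-fold difference with an edgeR adjusted p of 0.0317.

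At 50 ng the WT libraries were at 19.9, 15.8, 20.3 and 20.3 CPM and the GFAP-IL6 libraries at 25.5, 19.6, 20.3 and 42.8 CPM, which overlap. At 10 ng they were at 11.5, 21.8, 19.7 and 16.5 CPM in WT and at 21.9, 18.8, 33.5 and 39.6 CPM in GFAP-IL6, with 3 of 4 above every WT library. At 1 ng the values were 1.31, 10.9, 4.82 and 7.36 CPM in WT against 30.3, 7.65, 20.6 and 26.4 CPM, from as few as 2 counts. GFAP-IL6 replicate 4 was the highest library at both 50 and 10 ng, and replicate 2, the shallowest, was the lowest of its group at 50, 10 and 1 ng.

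At 0.5 ng Stat3 was at 16.6, 60.7, 24.7 and 13.7 CPM in WT and at 51.9, 186.4, 59.6 and 80.1 CPM in GFAP-IL6. Both genotypes had their highest library in replicate 2, which was the shallowest, and 2 of 4 GFAP-IL6 libraries were above every WT library. From 50 down to 0.5 ng, the log2 fold changes were 0.49 ± 0.252, 0.76 ± 0.268, 1.91 ± 0.876 and 1.69 ± 0.648 (edgeR adjusted p = 0.835, 0.467, 0.997 and 1). Against the difference at 50 ng, those at 10, 1 and 0.5 ng were larger by 0.27, 1.52 and 1.18, with adjusted p-values of 1, 1 and 0.944 for this interaction, so the inputs were not shown to differ. In these 3 interaction tests 0% of genes were called by edgeR, and Stat3 at 1 ng was the one member with an unadjusted p under 0.05. In that test 4.17% of all tested genes had an unadjusted p under 0.05.

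**Figure D2:**
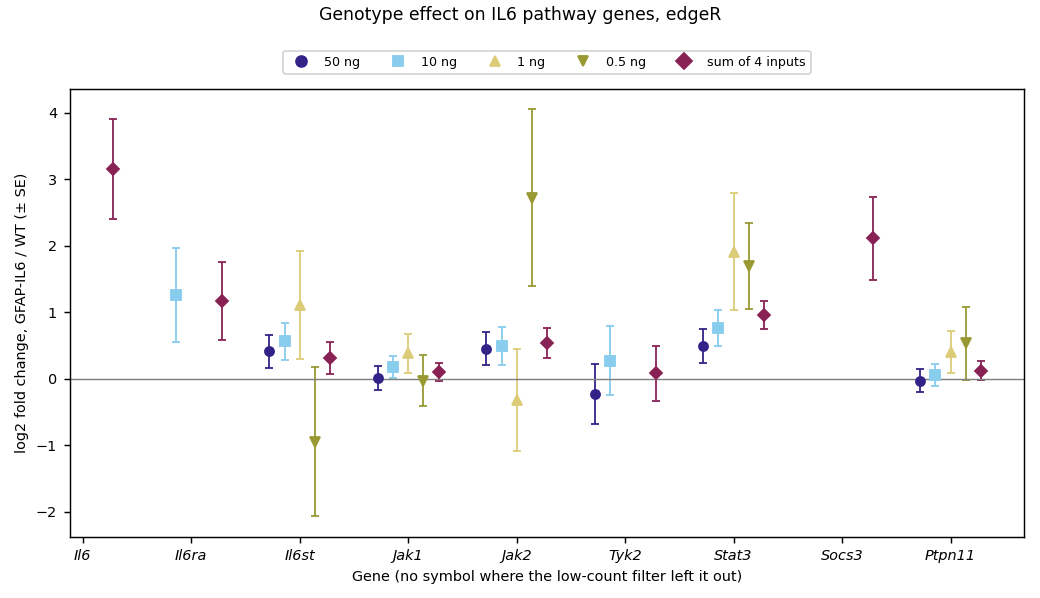
edgeR log2 fold change of GFAP-IL6 against WT (y axis) for each gene (x axis), with error bars of 1 SE, at each input of 4 against 4 libraries and for the sums of 4 inputs, and no symbol where the gene did not pass the low-count filter. Stat3 is above 0 at every input, and the error bars widen from 50 and 10 ng to 1 and 0.5 ng.

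The call of Stat3 depended on the 0.5 ng libraries, which gave 468 of its 1727 counts in GFAP-IL6 and 116 of its 771 counts in WT. With the 50 and 10 ng libraries alone the summed difference was 0.61 (edgeR adjusted p = 0.348), and with 50, 10 and 1 ng, a sum added after seeing the data, it was 0.73 (adjusted p = 0.184). The call was also lost without WT replicate 1, 3 or 4 or GFAP-IL6 replicate 2 or 4 (adjusted p between 0.0794 and 0.183), with differences of 0.81 to 0.95. DESeq2 gave 0.95 with an adjusted p of 0.00322. Stat3 shares 72 exon bases at its 3′ end with Stat5a on the opposite strand, and Stat5a itself had 17 counts in WT and 23 in GFAP-IL6 over all libraries.

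**Figure D3:**
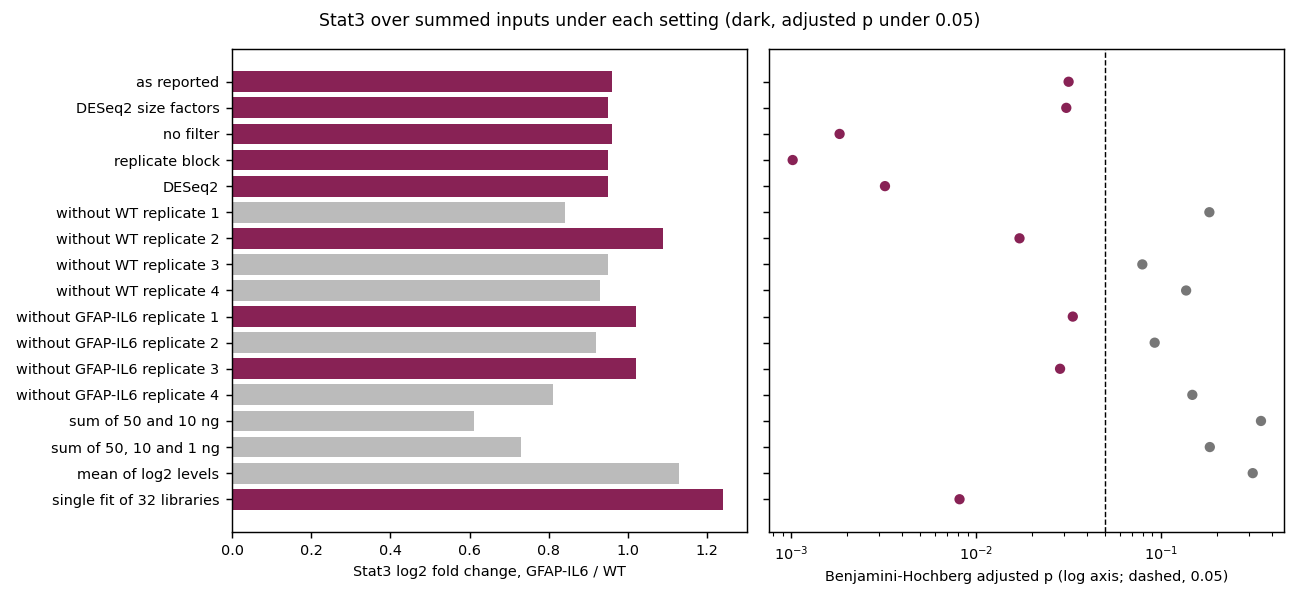
Stat3 log2 fold change of GFAP-IL6 against WT over summed inputs (left, bars from 0) and its adjusted p (right, log axis, dashed line at 0.05) as reported and under each other setting, dark where the adjusted p is under 0.05. The difference is above 0 in every setting, from 0.61 to 1.24, and it is past the threshold in some of them.

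Socs3 (ENSMUSG00000053113.3, chromosome 11, 117966079 to 117970047, minus strand), the feedback inhibitor whose promoter is printed above, was separated between genotypes at 50 ng, at 10 ng and in the sums. At 50 ng it had 0, 0, 2 and 4 counts in WT and 6, 4, 8 and 15 in GFAP-IL6, and the mean was 0.272 and 2.5 CPM (exact permutation p = 0.0286). At 10 ng it had 4, 1, 1 and 7 counts and 8, 1, 11 and 13 counts, with means of 0.642 and 1.6 CPM (exact permutation p = 0.0286). Both p-values are the smallest possible, and the lowest GFAP-IL6 library at 10 ng, replicate 2, rested on 1 count.

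The Socs3 sums were at 0.357, 0.272, 0.297 and 0.523 CPM in WT and at 1.91, 1.86, 1.53 and 1.72 CPM in GFAP-IL6. The lowest GFAP-IL6 sum was above the highest WT sum. The range within each genotype was narrow, but the sums held only 4, 1, 3 and 11 counts in WT and 20, 5, 20 and 36 in GFAP-IL6. At counts this low the spread within a genotype is not well measured. From 19 and 81 counts, the log2 fold change was 2.11 ± 0.627 (95% interval 0.82 to 3.40), which did not pass the adjustment over all genes (edgeR unadjusted p = 0.00239, adjusted p = 0.207). At 1 ng Socs3 had 1 count in all 8 libraries, and at 0.5 ng 2 GFAP-IL6 libraries had 6 and 8 counts and the other 6 libraries had 0 (exact permutation p = 1 and 0.429).

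Ptpn11 (ENSMUSG00000043733.12, chromosome 5, 121130533 to 121191397, minus strand), which encodes the phosphatase SHP2, was at 82.9 to 97.2 CPM in the WT sums and at 79.8 to 112.5 CPM in the GFAP-IL6 sums. The difference was 0.12 ± 0.147 (95% interval -0.18 to 0.42, edgeR adjusted p = 0.855), and 3 GFAP-IL6 sums were above and 1 below every WT sum. From 50 down to 0.5 ng it was -0.03, 0.06, 0.40 and 0.53.

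The spread of Jak1, Ptpn11, Jak2 and Il6st between libraries was wider at 0.5 ng than at 50 ng. Over the 8 libraries of an input, the coefficient of variation of Jak1 was 18.6% at 50 ng and 29.1% at 0.5 ng, and that of Ptpn11 was 9.64% and 59.1%. Jak2, with fewer counts, went from 28.9% to 112.1% and Il6st from 29.4% to 86.5%. Il6 and Socs3 had counts in 6 of 8 libraries at 50 ng, and in 0 and 2 of 8 at 0.5 ng.

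Averaged over genotypes, edgeR called 0 members in the comparisons of 10, 1 and 0.5 ng with 50 ng, in which 0%, 1.2% and 1.41% of genes were called. At 1 ng, 2 members and 11.4% of all tested genes had an unadjusted p under 0.05. Stat3 was 0.88 lower on the log2 scale than at 50 ng, written as a change of -0.88 ± 0.387 (adjusted p = 0.361), and Jak1 changed by -0.42 ± 0.159 (adjusted p = 0.254). At 0.5 ng Stat3 was higher than at 50 ng by 1.20 ± 0.387 (edgeR adjusted p = 0.148), and DESeq2 called this rise (adjusted p = 0.0182). The means of Stat3 over the 8 libraries were 23.1, 22.9, 13.7 and 61.7 CPM from 50 to 0.5 ng. DESeq2 called 0 members at 10 and at 1 ng.

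The other genes of the pathway were taken from lists by role, which were chosen with earlier results of these data known. In the summed comparison the 3 called besides Stat3 were all in the list of STAT3 target genes. Of the 9 other ligands of the family, Ctf1 and Ebi3 passed the filter, and neither was called. Of the 5 other receptor chains 4 passed and 0 were called by edgeR, with 1 at an unadjusted p under 0.05. That 1 was Osmr, the oncostatin M receptor, at 0.959 ± 0.669 CPM in WT and 3.24 ± 2.65 CPM in GFAP-IL6 (SD, n = 4 each, adjusted p = 0.275). Lifr (23.2 and 25.1 CPM), Cntfr (2 and 2.05 CPM) and Il11ra1 (24.7 and 21.7 CPM), the receptors of related cytokines, overlapped between genotypes, and Il27ra had 1 count in each genotype.

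Of 7 other kinases and STATs 5 passed, 0 were called and 1 had an unadjusted p under 0.05. Of 14 feedback inhibitors and phosphatases all 14 passed, 0 were called and 2 had an unadjusted p under 0.05, with 10 higher and 4 lower. The 2 proteases that shed the IL6 receptor and the 6 adaptors downstream of SHP2 held 0 genes called and 0 with an unadjusted p under 0.05. The median log2 fold changes of these lists were 0.17, 0.15, 0.40 and 0.22, beside 0.010 over all genes. An unadjusted p under 0.05 was held by 7.9% of all tested genes in the summed comparison.

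**Figure D4:**
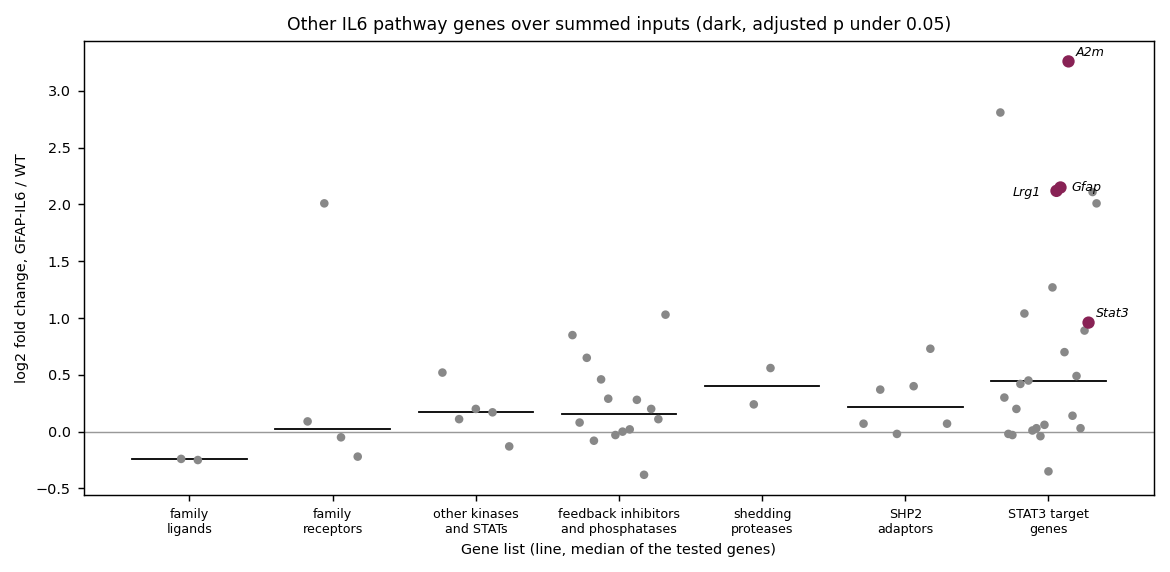
edgeR log2 fold change of GFAP-IL6 against WT over summed inputs (y axis) for the tested genes of 7 pathway lists (x axis), each point 1 gene and each line the median of a list, with called genes large, dark and named. The 4 called genes, A2m, Gfap, Lrg1 and Stat3, are all in the list of STAT3 target genes, and most other points lie between -0.5 and 1.3.

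Of 28 STAT3 target genes, a list that also holds Stat3, Socs3 and Osmr, 25 passed. Of these, 4 were called higher and 0 lower (0.454% of all genes were called higher), and 12 had an unadjusted p under 0.05 (7.9% of all genes). The median log2 fold change was 0.45. The 4 called genes include the member Stat3. The list was chosen with earlier results of these data known, so its share of called genes is no independent support. Lrg1, an acute phase glycoprotein, was at 7.63 to 17.1 CPM in WT and 36.9 to 73.3 CPM in GFAP-IL6 (log2 fold change 2.12 ± 0.228, edgeR adjusted p = 3.02e-06). Gfap, the astrocyte filament gene whose promoter drives the transgene, was at 7.99 to 13.5 and 29.8 to 67.6 CPM (2.15 ± 0.241, adjusted p = 5.49e-06).

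A2m, a protease inhibitor of the acute phase, had 16 counts in WT and 153 in GFAP-IL6 (3.26 ± 0.647, adjusted p = 0.00938). Its call was lost without WT replicate 1 or 4 or GFAP-IL6 replicate 1 (log2 fold changes of 3.16, 3.26 and 2.89, edgeR adjusted p = 0.0648, 0.0657 and 0.0875), and by the mean of log2 levels, at 1.35 (adjusted p = 0.165). Within inputs, Gfap and Lrg1 were the genes of the 7 lists called at 50 and 10 ng, and edgeR called 0 genes of the lists at 1 and 0.5 ng. In a single fit of all 32 libraries neither was called at 50 ng (Gfap 2.22, adjusted p = 0.378, and Lrg1 2.17, adjusted p = 1) or at 10 ng (2.51, adjusted p = 0.135, and 1.98, adjusted p = 1). That single fit had a common biological coefficient of variation of 0.526, against 0.214 at 50 ng and 0.238 at 10 ng fitted alone. At 1 ng Lrg1 was at 3.32 on the log2 scale (edgeR adjusted p = 0.0987), and DESeq2 (3.37, adjusted p = 0.00187) and the fit with no filter called it. Fgg and Fgb, fibrinogen chains made by liver, had 0 counts.

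The letters TTCNNNGAA were in 6 of 29 promoters of STAT3 target genes (20.7%, beside 8.3% of all promoters), which count Socs3 and any gene with several starts. The list was chosen with earlier results of these data known, and Fgb, which held the letters, had 0 counts. Of Gfap, Lrg1 and Stat3, the called genes whose promoters were searched, Gfap held them, across its start in the promoter at chr11:102897151-102897450, minus strand, and the stretch is printed with the match in capitals because Gfap was called at both 50 and 10 ng. The promoters of A2m, Myc, Cebpd and Ccnd1 were not searched.
Gfap: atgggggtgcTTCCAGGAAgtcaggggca

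Over the 16 libraries of 50 and 10 ng, the genes whose log2(CPM + 1) followed that of Stat3 most closely were Snx18 (Pearson r = 0.888, Spearman rho = 0.812), Zswim8 (0.849 and 0.65) and Gm10862 (0.847 and 0.721), of 11611 genes. Without the 2 libraries farthest from the median of Stat3, GFAP-IL6 replicate 4 at 50 and at 10 ng, r was 0.743, 0.695 and 0.684. For Socs3 they were Ago1 (r = 0.831, rho = 0.823), Tmem252 (0.82 and 0.836) and Lgals3bp (0.811 and 0.806), and without the 2 farthest libraries r was 0.732, 0.876 and 0.882. Over deviations from the means of the 4 groups, r was 0.901, 0.807 and 0.774 for the genes nearest to Stat3 and 0.533, 0.423 and 0.218 for those nearest to Socs3. These are descriptions, since libraries share genotype and possibly animals, and with a pseudocount of 0.1 the 3 genes nearest to Socs3 were Zbtb40, Bin2 and Ifi30.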

How the data were processed

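The authors aligned the 3’Pool-seq reads with STAR (version 2.4 per the submitters' processing notes) and made gene counts from unique alignments with featureCounts. The deposited values were raw counts, one column per library, and 0 sample columns were left unused. Whether counting used strand was not given in the sources used here. Coordinates are from GENCODE on GRCm38, the build the study names for mouse, and promoters from RefSeq GRCm38.p6.

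The 9 members, the gene lists and the tests were chosen with earlier results of these data known. All 9 members are named, with pathway-list genes called in any genotype comparison, every receptor of the family, and the 3 genes nearest to Stat3 and to Socs3 by Pearson's r. edgeR 4.0.16 in R 4.3.3 (TMM, filterByExpr, quasi-likelihood test, Benjamini-Hochberg adjustment over all genes tested) compared 4 GFAP-IL6 with 4 WT libraries at each input, and the sums over inputs. Input effects used 16 libraries, taken as independent, with genotype as a term, and interactions the same libraries. SE came from the F statistic, and intervals from the t distribution. Members below the filter had a two-sided exact permutation test of CPM over 70 arrangements, without adjustment. Alternatives were DESeq2 1.42.0, its size factors, no filter, a replicate block, 1 fit of 32 libraries, other sums, limma 3.58.1 on mean log2 levels, a fold threshold, another pseudocount and leaving out each replicate. Python 3.11.15 with scipy 1.17.1 did the rest, and fits were tested on simulated data.

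A library's floor was 3 counts of its total. Without molecular identifiers in the reads, such floors hold for counting error alone. Replicate libraries were checked for repeated deposits over 48 pairs. The lowest chi-square per degree of freedom was 2.37, so each library counted once.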

Additional observations from a re-analysis of the deposited data

Results flagged for a closer look

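Among 83 groups of 4 values of a member, 17 had a value far from the other 3 by Dixon's ratio at the 95% level. The chance rate of 1 in 20 holds for independent, normally distributed values. Many groups here hold zeros or few counts, and the sums reuse the same libraries, so an excess of such values cannot be read from this number. For Il6, WT replicate 3 stood apart at 1 ng (10.4 CPM, the others 0) and in the sums (1.59 CPM). Groups in which the other 3 libraries were at 0 were Il6ra in replicate 4 of WT (1.64 CPM) and GFAP-IL6 (1.07 CPM) at 1 ng and of GFAP-IL6 at 0.5 ng (2.57 CPM), Tyk2 in GFAP-IL6 replicate 1 at 1 ng (9.37 CPM) and Socs3 in GFAP-IL6 replicate 3 at 1 ng (0.557 CPM). Tyk2 also stood apart in WT replicate 1 at 50 ng (7.47 CPM), GFAP-IL6 replicate 1 at 10 ng (2.46 CPM, the low one), WT replicate 3 at 0.5 ng (7.72 CPM) and the WT sum of replicate 2 (1.63 CPM, the low one). Jak1 was high in GFAP-IL6 replicate 4 at 50 ng (166.7 CPM), WT replicate 2 at 10 ng (120.9 CPM) and WT replicate 3 at 1 ng (87.5 CPM). Il6st was high in GFAP-IL6 replicate 2 at 0.5 ng (33.9 CPM), Ptpn11 was high in GFAP-IL6 replicate 2 at 1 ng (179.8 CPM), and Stat3 was low in WT replicate 2 at 50 ng (15.8 CPM).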

How the results depend on the processing

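The number of members called at 50 ng and at 10 ng went from 0 to 1 (Il6) with no filter, with DESeq2 and with the replicate block, and leaving out each replicate gave 0 to 1 at 50 ng. A single fit of 32 libraries called 2 at 0.5 ng (Jak2 and Stat3). In the sums the count of 1 became 2 (Il6 and Stat3) with no filter, DESeq2 or the replicate block, 0 with mean log2 levels or a fold threshold of 1 on the log2 scale, and 0 to 1 without each replicate. At 0.5 against 50 ng it became 1 with no filter (Il6), DESeq2 or the single fit (Stat3).

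Without each replicate, the Il6 difference in CPM was 3.47 to 6.03 at 50 ng and 2.8 to 5.53 at 10 ng, and that of Socs3 was 1.82 to 2.48 and 0.768 to 1.18, all at an exact permutation p of 0.0571, the smallest that 3 against 4 can give. At 1 ng the Il6 difference ran from -1.42 to 5.76 CPM and that of Il6ra from -0.409 to 0.268 CPM.

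The log2 differences that changed sign were not called under any of these settings, and the cause was not tested. Without each replicate, the genotype difference ran from -0.19 to 0.10 for Jak1, -0.61 to 0.28 for Tyk2 and -0.09 to 0.07 for Ptpn11 at 50 ng, from -0.05 to 0.16 for Ptpn11 at 10 ng, from -0.76 to 0.04 for Jak2 at 1 ng, from -0.39 to 0.13 for Jak1 at 0.5 ng and from -0.12 to 0.18 for Tyk2 in the sums. Against 50 ng, it ran from -0.22 to 0.24 (Il6ra) and -0.13 to 0.06 (Stat3) at 10 ng, -0.05 to 0.31 (Jak2) and -0.08 to 0.08 (Ptpn11) at 1 ng, and -0.21 to 0.42 (Il6st) and -0.09 to 0.23 (Jak1) at 0.5 ng. The replicate block gave -0.02 (Jak1, 50 ng genotype), -0.08 (Il6ra, 10 against 50 ng), -0.10 (Jak2) and -0.04 (Ptpn11, both 1 against 50 ng) and -0.32 (Il6st, 0.5 against 50 ng). No filter gave -0.02 for Ptpn11 at 1 against 50 ng, and the single fit 0.00 for Ptpn11 at 50 ng.

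Over all genes, the calls at 50 ng went from 33 to 93 with no filter and 3 in the single fit, those at 10 ng from 40 to 64 with no filter, 67 with the block and 4 in the single fit, those at 1 ng from 3 to 11, 9, 13 (DESeq2) and 12 (single fit), those at 0.5 ng from 1 to 5, 3, 21 and 655, and those of the sums from 63 to 157 with no filter, 140 with the block, 127 with DESeq2, 154 in the single fit and 23 with mean log2 levels. Against 50 ng, the calls at 10 ng went from 0 to 164 with the block and 27 with DESeq2, at 1 ng from 129 to 266 with no filter and 456 with DESeq2, and at 0.5 ng from 153 to 833, 321 (block), 771 and 818 (single fit). Leaving out each replicate gave 11 (without WT replicate 4) to 78 (without GFAP-IL6 replicate 4) calls at 50 ng, 27 to 54 at 10 ng, and 0 to 20, 68 to 211 and 77 to 186 at 10, 1 and 0.5 ng against 50 ng. The replicate numbers were not taken as a pairing, since the rule that every pair correlate above 0.1 was not met. Even so, replicate 2 was the shallowest and replicate 4 the deepest library at every input in both genotypes. With the replicate block, Il6 and Stat3 were called in the sums (edgeR adjusted p = 0.00108 and 0.00102). Between WT and GFAP-IL6, the lowest correlation of same-numbered deviations was 0.0361, 0.039, 0.0158 and -0.00259 from 50 down to 0.5 ng. There, 4 of 4 samples at 50, 10 and 1 ng and 1 of 4 at 0.5 ng correlated best with their own number. WT and GFAP-IL6 libraries come from different mice, and what a number shares across genotypes was not given in the sources used here. Within WT, 4 of 4 libraries of 50 ng correlated best with their own number at 10, 1 and 0.5 ng. Within GFAP-IL6 it was 3, 4 and 3 of 4. The choroid plexus list also had its highest WT library at 3016.4 to 3375.1 CPM at every input. Only 1 WT sum was that high (3167.9 CPM, median of the WT sums 76.4 CPM), so the same WT number was high at all 4 inputs. These are hints from the data and not from the design. If same-numbered libraries of a genotype share an animal, the 16 libraries of an input comparison are not independent. The main input and interaction tests did not allow for this. The block also gave -0.21 for Il6st at 0.5 ng and called Lrg1 at 1 ng (3.86, adjusted p = 0.00499 by edgeR). Il6, Il6ra, Tyk2 and Socs3 had few counts at 1 and 0.5 ng, where RNA input and depth cannot be told apart.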
